A study of Arabidopsis thaliana with 8 samples.

Results

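The genotype effect of paps1-1 was compared between seedlings and inflorescences of Arabidopsis thaliana. For every locus, the log2 ratio of mutant over wild type in inflorescences was subtracted from that in whole seedlings, which gives the seedling minus inflorescence difference. All 8 arrays of the study entered this comparison, 4 of inflorescences and 4 of seedlings, and 21443 of the 25665 loci on the array were bright enough to be tested. Each array was hybridized in 2 colours, with RNA of the mutant in one dye and RNA of the wild type, labelled WT, in the other. Both genotypes were in the accession Ler and both grew at 21 °C in long days, with material taken 5 to 7 h after lights came on. The inflorescence samples were main inflorescences of 30-day plants on soil from which open flowers and buds had been removed. The seedling samples were whole plants with roots from MS plates, 11 days old for paps1-1 and 9 days old for the wild type, ages that the labels give as matching the stage of the first true leaves. The 2-day age gap and the genotype cannot be told apart in seedlings, and it does not exist in inflorescences. Inflorescence arrays shared 1 slide and seedling arrays another, so tissue and slide likewise cannot be told apart. Growth on soil or on plates also goes with tissue. The mutant carried Cy5 on replicates 1 and 2 of each tissue and Cy3 on replicates 3 and 4. No control sample was common to the tissues, since each array carried wild-type RNA of its own. The design text calls the 4 samples of each genotype and tissue biological replicates.

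PAPS1 is one of the nuclear poly(A) polymerases, the enzymes that add a poly(A) tail to the 3′ end of messenger RNA after cleavage. Tails help messengers to leave the nucleus, to be translated and to escape decay, and Arabidopsis has several such polymerases that are not interchangeable. Loss of PAPS1 function is known for leaves that stay small and floral organs that become large, and for raised defence gene expression, so a comparison of the genotype effect between a leafy and a floral sample bears on which transcripts respond alike in both. paps1-1 is known as a substitution in the PAPS1 protein and not as a deletion, so the PAPS1 transcript does not check the labels. The labelling primer is not known, so a ratio stands for hybridized signal.

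The tissue labels were checked on the wild-type channels. The median wild-type level of the floral organ identity list was 4.11 lower in seedlings than in inflorescences on the log2 scale (difference −4.11), and that of the tapetum list, genes of the anther layer that feeds pollen, differed by −6.23. Root markers were higher in seedlings by a median of 1.76 and nuclear photosynthesis genes by 0.97. In bulk samples such as these, fewer cells of a type and less RNA per cell cannot be told apart. Median signal over background was 2.655 to 5.018 in red and 3.35 to 5.513 in green on the single arrays, lower on the seedling slide than on the inflorescence slide in each colour, and no spot was saturated. Log2 ratios correlated across loci with r of 0.789 to 0.905 between inflorescence arrays, 0.702 to 0.895 between seedling arrays and 0.369 to 0.535 between arrays of different tissues. Loci are not independent replicates.

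Most transcripts that differed between the genotypes in both tissues moved the same way, and a small set moved in opposite ways. Loci were called at a Benjamini-Hochberg adjusted p under 0.05 in a limma fit over all loci, which called 11509 loci in inflorescences (53.7%) and 12408 in seedlings (57.9%). Of all loci tested, 26.2% were called higher and 27.5% lower in inflorescences, and 28.6% higher and 29.3% lower in seedlings. Of the 7735 loci called in both, 7022 (90.8%) had the same sign and are termed shared, 3317 of them higher in the mutant (15.5% of loci tested) and 3705 lower (17.3%). The other 713 (9.2%) had opposite signs and are termed opposed. They comprise 359 loci that were lower in mutant inflorescences and higher in mutant seedlings (1.67% of loci tested) and 354 that were higher in mutant inflorescences and lower in mutant seedlings (1.65%). Most of these ratios were small. The median log2 ratio of the first opposed set was −0.30 in inflorescences and 0.29 in seedlings, and that of the second was 0.27 and −0.28. At 1.5-fold or more in both tissues, 673 loci were shared, 390 higher (1.82%) and 283 lower (1.32%), against 23 opposed, 17 of the first kind (0.0793%) and 6 of the second (0.028%). Across all loci the effects in the tissues correlated with r = 0.545.

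**Figure D1:**
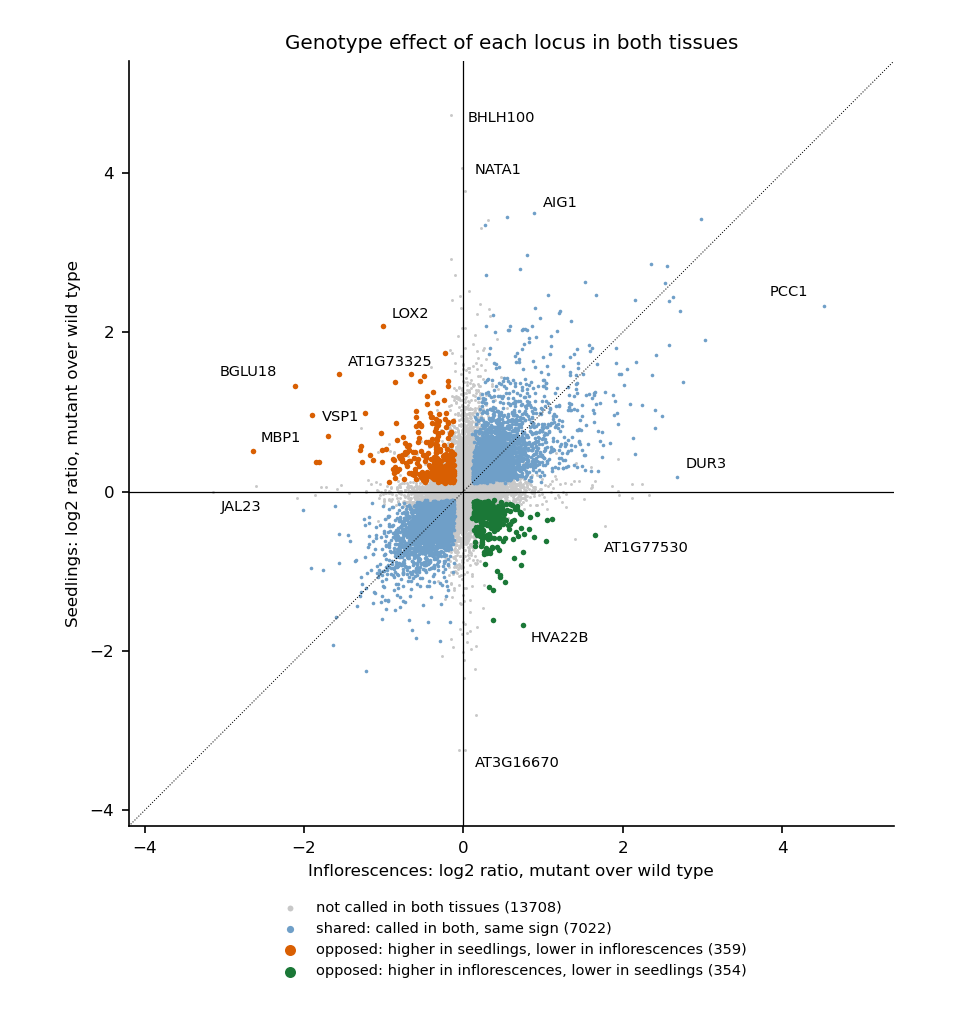
Each point is 1 of 21443 loci, with the fitted log2 ratio of mutant over wild type in inflorescences on the x axis and in seedlings on the y axis, and the dotted line marks equal effects. The 7022 shared loci lie in the upper right and lower left corners, the 713 opposed loci in the other corners, and loci such as BHLH100, DUR3 and JAL23 lie along an axis.

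The difference itself was called for 6905 loci (32.2%), 3499 higher in seedlings (16.3%) and 3406 lower (15.9%). With arrays only median centred, in place of loess, it was called for 2941 loci, 1072 higher and 1869 lower, and the opposed sets held 138 and 225 loci, while the shared sets held 1799 higher and 4032 lower. A difference of at least 2-fold was called for 470 loci, 309 higher and 161 lower in seedlings. Among the 18340 loci above background in both tissues, 31.3% had a called difference, as against 37.7% of the 3103 loci that were not above background in one of them. The values of the 4 seedling arrays lay wholly above or wholly below those of the 4 inflorescence arrays for 5799 of 21332 loci (27.2%).

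Jasmonate-linked genes and genes of endoplasmic reticulum bodies, the β-glucosidase stores of the Brassicaceae, were among the opposed loci lower in mutant inflorescences and higher in mutant seedlings. BGLU18 (AT1G52400), which encodes a β-glucosidase of such bodies, had log2 ratios of −1.91, −2.26, −1.84 and −2.46 on the inflorescence arrays and of 1.55, 1.37, 1.02 and 1.35 on the seedling arrays, in replicate order as for every gene below. The most opposed loci were chosen for the same sign on all 4 arrays of each tissue. Their arrays therefore cannot overlap between the tissues. The fitted ratios of BGLU18 were −2.12 ± 0.10 and 1.32 ± 0.10 (SE, n = 4 arrays each), and the difference of 3.44 ± 0.14 had an adjusted p of 7.88e-07 in limma. TSA1 (AT1G52410), the next gene along the chromosome and also an endoplasmic reticulum body gene, stood at −0.96, −1.46, −1.07 and −1.47 in inflorescences and at 0.93, 1.08, 0.91 and 0.99 in seedlings. Its difference was 2.22 ± 0.12 (limma, adjusted p = 3.01e-06).

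LOX2 (AT3G45140) encodes the chloroplast lipoxygenase that starts jasmonate synthesis from linolenic acid. LOX2 was low on the inflorescence arrays (−0.88, −0.96, −1.13 and −1.05) and high on the seedling arrays (2.81, 2.19, 1.92 and 1.40). Its difference was 3.08 ± 0.18 (limma, adjusted p = 4.34e-06). The inflorescence arrays lay close together, whereas the seedling arrays spread over more than 1 log2 unit. VSP1 (AT5G24780), a vegetative storage protein gene that serves as a jasmonate marker, stood at −1.65, −1.79, −1.98 and −2.20 in inflorescences and at 1.03, 1.35, 0.44 and 1.03 in seedlings. The fitted values of −1.91 ± 0.09 and 0.96 ± 0.09 gave a difference of 2.87 ± 0.13 (limma, adjusted p = 1.29e-06). The wild-type level of VSP1 was far higher in inflorescences, by 8.04 on the log2 scale (seedlings minus inflorescences −8.04), so the opposite ratios belong to very different starting levels. BGLU18, TSA1 and LOX2 also had higher wild-type levels in inflorescences, with seedling minus inflorescence values of −3.89, −2.59 and −2.24. MBP1 (AT1G52040), a myrosinase-binding protein gene, was also opposed and was measured tightly. It stood at −2.45, −2.80, −2.66 and −2.66 in inflorescences and at 0.53, 0.51, 0.42 and 0.58 in seedlings (difference 3.15 ± 0.08, limma, adjusted p = 3.34e-08).

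Lists of jasmonate genes showed the same split in part. Of 15 jasmonate synthesis genes, 2 rose and 6 fell in inflorescences and 10 rose and 1 fell in seedlings, with median log2 ratios of −0.03 and 0.47 where the median of all loci was 0.00 in each tissue. A difference was called for 10 of the 15, all higher in seedlings (66.7% against 32.2% of all loci), or for 5 with median centring. OPR3, the reductase of the peroxisomal step, was at −0.15, which did not pass, in inflorescences and rose by 1.09 in seedlings, where its arrays stood at 0.87, 1.13, 1.27 and 1.08. Its difference was 1.24 ± 0.10 (limma, adjusted p = 2.59e-05). Opposed members were LOX2, AOS and LOX4. AOS, the allene oxide synthase, was at −0.35 and 0.48 and left the opposed set without inflorescence replicate 1 or 2. LOX4 (−0.30 and 0.23) left it without seedling replicate 3. Both genes also left it with median centring and on the arrays of either dye orientation alone.

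Of 16 JAZ repressor and MYC factor genes, which encode the inhibitors and activators of jasmonate responses, 1 rose and 11 fell in inflorescences, and 7 rose and 2 fell in seedlings. The list medians were −0.20 and 0.00. A difference was called for 8 of the 16, all higher in seedlings, against a called share of 32.2% of all loci. JAZ7 stood at −1.02, −1.17, −1.34 and −1.61 in inflorescences and at 0.16, 0.71, 1.13 and 0.28 in seedlings, with a difference of 1.85 ± 0.21 (limma, adjusted p = 0.000161). TIFY7, also known as JAZ9, was steadier, at −0.53, −0.51, −0.56 and −0.69 in inflorescences and 0.64, 0.74, 0.78 and 0.80 in seedlings (difference 1.31 ± 0.07, limma, adjusted p = 3.01e-06). JAZ5 was opposed as well, at −0.57 and 0.63. JAZ7, TIFY7 and JAZ5 remained opposed under every alternative that could be run for them, while JAZ10 (−0.41 and 0.40) left the set with median centring and on the Cy5 arrays alone. JAZ8 (−0.17 and 0.16) left it without any of inflorescence replicates 1, 2 and 4 or seedling replicates 1, 2 and 3.

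Of 16 genes of jasmonate and ethylene output, 2 rose and 4 fell in inflorescences and 14 rose and none fell in seedlings, with medians of −0.02 and 1.11. All 13 called differences (81.2%) were higher in seedlings, but only 8 of the 16 were above background in both tissues (in at least 1 genotype on all 4 arrays of each), and 6 of the 13 were among those 8. VSP2, the neighbour and relative of VSP1, was at −0.33 in inflorescences and 1.11 in seedlings (difference 1.44), and its opposed call ended without inflorescence replicate 1 or 2. JR1, a jasmonate-responsive lectin gene, had arrays at −1.58, −2.16, −1.66 and −1.98 in inflorescences and at 0.14, 0.38, 0.49 and 0.45 in seedlings. Its difference of 2.21 came mostly from inflorescences, unlike that of OPR3, which came from seedlings. The thionin gene THI2.1 fell by 2.60 in inflorescences and was not above background in either genotype in seedlings, so it has no measured ratio there.

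The myrosinase, endoplasmic reticulum body and jacalin lectin list, genes of the glucosinolate breakdown system, had 4 of 26 members higher and 13 lower in inflorescences, and 16 higher and 1 lower in seedlings. Medians were −0.30 and 0.28, and the difference was called for 16 members higher in seedlings and 3 lower (73.1% called). 7 members were opposed, each in the same direction. MEB1 and MEB2, membrane proteins of the bodies, stood at −0.86 and −0.72 in inflorescences and at 0.30 and 0.36 in seedlings, and both left the opposed set with median centring. TGG1, a myrosinase, stood at −0.42 and 0.23 and left it without seedling replicate 3. On the single arrays the list median lay between −0.39 and −0.20 in inflorescences and between 0.07 and 0.37 in seedlings. Floral and root markers moved beside these lists. The floral organ identity list had 8 of 16 genes higher and 0 lower in inflorescences, with array medians of 0.13 to 0.19, and the root list had 11 of 17 higher in seedlings, with array medians of 0.29 to 0.88. Their part in these results was not tested.

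**Figure D2:**
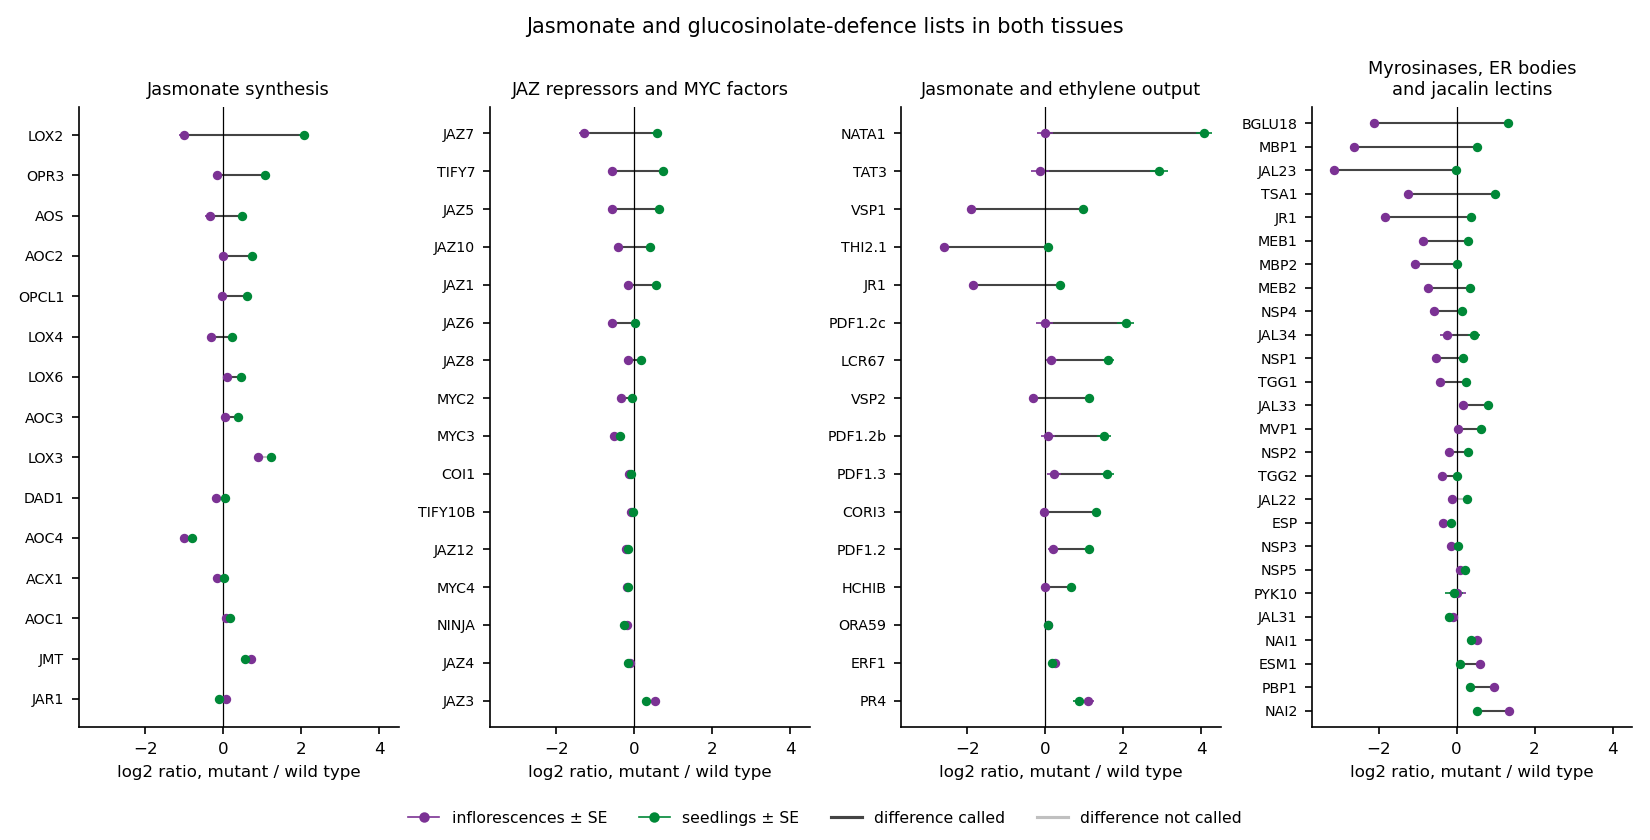
The x axis gives the fitted log2 ratio of mutant over wild type ± SE for each tested member of 4 lists, with purple points for inflorescences and green points for seedlings, joined by a dark line where the difference was called. Dark lines run from purple on the left to green on the right, as for BGLU18, LOX2, VSP1 and JAZ7, except for 3 members of the last list.

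Opposition in the same direction reached other pathways. PAP1 at locus AT1G56650, the MYB transcription factor gene also called MYB75 that activates anthocyanin synthesis, had ratios of −0.95, −1.11, −1.14 and −0.94 in inflorescences and 1.19, 0.91, 0.67 and 0.17 in seedlings. The inflorescence arrays were uniform, and among the seedling arrays replicate 4 was lowest. The difference was 1.77 ± 0.15 (limma, adjusted p = 3.75e-05). The pathway as a whole did not follow PAP1 in inflorescences. Of 16 flavonoid and anthocyanin genes, 6 rose and 1 fell there (median 0.05), and 14 rose and none fell in seedlings (median 0.89). The difference was called for 13 higher and 2 lower (93.8%). The late enzyme genes DFR and LDOX stood at 0.03 and −0.09 in inflorescences, which did not pass, and at 1.53 and 1.18 in seedlings. The difference of LDOX was 1.27.

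CYP79B3 (AT2G22330), whose enzyme turns tryptophan into the aldoxime at the head of indole glucosinolates and camalexin, stood at −0.48, −0.89, −0.55 and −1.09 in inflorescences and at 0.71, 0.79, 0.62 and 0.61 in seedlings (difference 1.43 ± 0.12, limma, adjusted p = 3.68e-05). Its wild-type level was higher in seedlings by 3.76, the reverse of LOX2. Of the 16 genes of camalexin and indole glucosinolates, 3 rose and 6 fell in inflorescences, and 12 rose and none fell in seedlings. The difference was called for 12 higher and 1 lower (81.2%). CYP71A12, a camalexin enzyme gene, was at 0.32 in inflorescences, which did not pass, and at 2.29 in seedlings. CYP81F4, which modifies indole glucosinolates, fell by 2.09 in inflorescences and was at −0.08 in seedlings, which did not pass, a difference of 2.01 ± 0.08 (limma, adjusted p = 7.88e-07). MGDC (AT2G11810), a galactolipid synthase gene known for its induction by phosphate starvation, stood at −0.49, −0.91, −1.02 and −0.91 in inflorescences and at 0.76, 0.77, 0.55 and 0.49 in seedlings (difference 1.47 ± 0.09, limma, adjusted p = 5.87e-06). Loci without a symbol in the reference table were among the most opposed. AT1G73325 stood at −1.52, −1.62, −1.53 and −1.56 in inflorescences and at 1.44, 1.80, 1.38 and 1.26 in seedlings, and ranked first by the smaller of both ratios. The others were AT1G52000, AT2G41800, AT2G34810 and AT5G05600, with differences between 1.71 and 2.39.

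The set opposed the other way was milder. HFR1 (AT1G02340), a bHLH factor gene of far-red light and shade responses, stood at 0.51, 0.77, 0.84 and 0.87 in inflorescences and at −1.14, −0.93, −0.79 and −0.17 in seedlings. Among the seedling arrays replicate 4 was nearest to 0, and the difference was −1.50 ± 0.14 (limma, adjusted p = 5.38e-05). HVA22B (AT5G62490), a relative of an abscisic acid-induced barley gene, had ratios of 0.90, 0.64, 0.78 and 0.65 in inflorescences and −1.85, −1.79, −1.34 and −1.73 in seedlings, a difference of −2.42 ± 0.11 (limma, adjusted p = 1.33e-06). ECP63 (AT2G36640), a late embryogenesis abundant protein gene, stood at 0.69, 0.72, 0.60 and 0.48 in inflorescences and at −0.56, −0.82, −0.35 and −0.67 in seedlings (difference −1.22 ± 0.10, limma, adjusted p = 3.67e-05). Seed and late embryogenesis genes as a list were lower in mutant seedlings, with 8 of 13 lower and 1 higher there, against 1 lower and 3 higher in inflorescences. Only 5 of the 13 were above background in both tissues, and of these 2 were lower and 1 higher in seedlings. The list median on single seedling arrays lay between −0.94 and −0.25, and on inflorescence arrays between −0.05 and 0.16. In seedlings this and the age gap between the genotypes cannot be told apart.

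Cell wall and surface genes were also in this set. DCF (AT3G48720), an acyltransferase gene of cutin ferulate, stood at 0.58, 1.17, 0.88 and 0.91 in inflorescences and at −0.76, −0.60, −0.44 and −0.48 in seedlings, a difference of −1.45 ± 0.12 (limma, adjusted p = 2.66e-05). PME61 (AT3G59010), a pectin methylesterase gene, stood at 0.57, 0.78, 0.79 and 0.90 and at −0.61, −0.48, −0.65 and −0.42, a difference of −1.30 ± 0.08 (limma, adjusted p = 7.43e-06). For both genes the lack of overlap between the tissues was required by the choice of loci. UGT75B1 (AT1G05560), a glucosyltransferase gene, stood at 0.38, 0.41, 0.66 and 0.62 in inflorescences and at −1.04, −1.65, −1.33 and −0.51 in seedlings, and left the opposed set when the Cy5 arrays alone were fitted. The locus next to ECP63, AT2G36630, stood at 1.00, 1.10, 1.11 and 0.95 in inflorescences and at −0.82, −0.81, −0.82 and −0.02 in seedlings. Its seedling replicate 4 lay apart, and it left the set on the Cy3 arrays alone. AT1G77530 had the highest inflorescence ratio of the 12 named here, at 1.80, 2.02, 1.11 and 1.69, against −0.82, −0.41, −0.56 and −0.39 in seedlings. AT1G72100, AT5G02540, AT4G29905 and AT1G78460 were the others, with differences from −1.64 to −1.10.

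**Figure D3:**
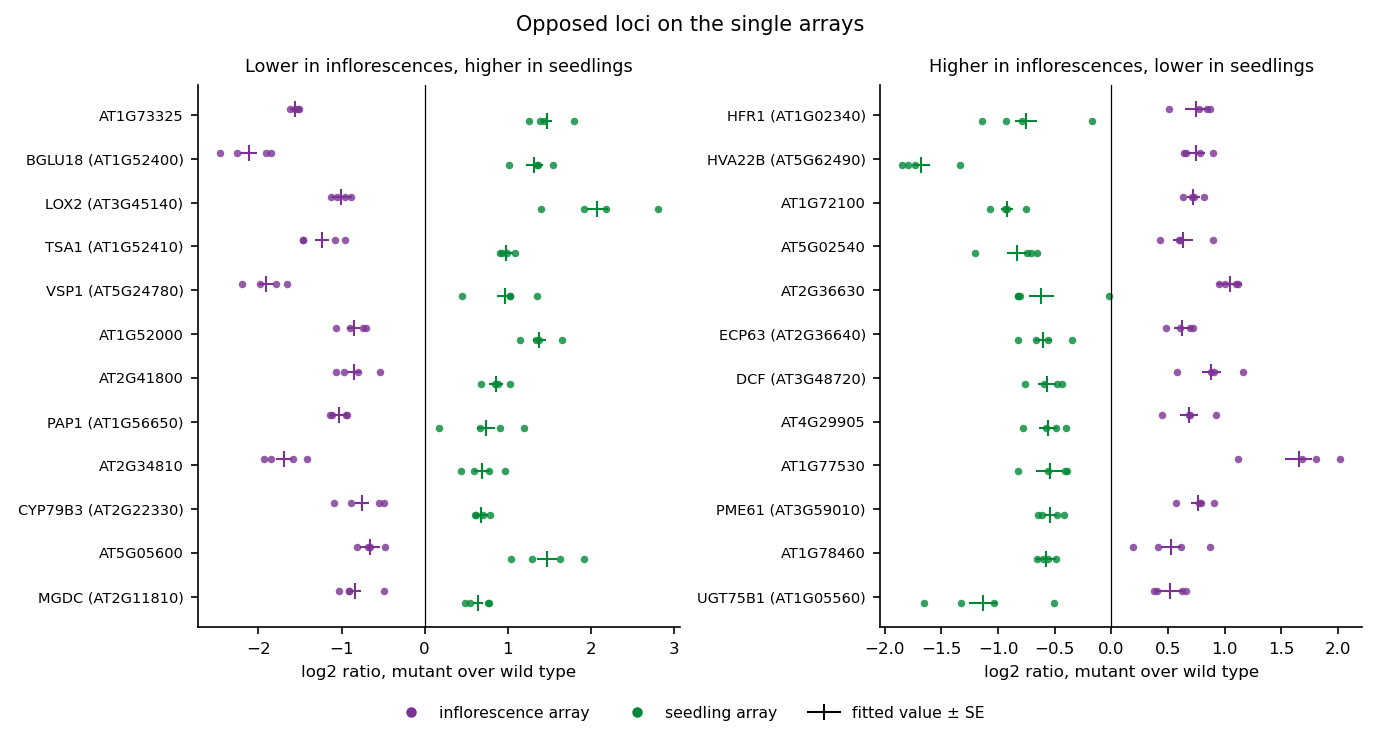
The log2 ratio of mutant over wild type on each array is shown for the 12 most opposed loci of each direction, with purple points for the 4 inflorescence arrays, green points for the 4 seedling arrays, and crosses for the fitted value ± SE. All points of a tissue lie on one side of 0 for every locus, as the choice of these loci required.

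AGL20, better known as SOC1, a MADS-box gene that promotes flowering, was opposed in this direction. It stood at 0.58, 0.79, 0.45 and 0.43 in inflorescences and at −0.51, −0.38, −0.42 and −0.39 in seedlings, a difference of −0.99 ± 0.08 (limma, adjusted p = 3.26e-05). SPL4, another promoter of flowering and a target of microRNA156, went the opposite way, at −0.36 in inflorescences and 0.40 in seedlings, and left its opposed set with median centring. The 19 flowering time genes had 5 higher and 9 lower in inflorescences and 1 higher and 9 lower in seedlings. Of these genes 7 were shared and lower, where the share of all loci was 17.3%. Their difference was called for 5 higher and 6 lower (57.9% against 32.2% of all loci), or for 4 and 5 with median centring.

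Auxin and growth genes split by family. Of 29 Aux/IAA repressor genes, 9 rose and 5 fell in inflorescences and 3 rose and 16 fell in seedlings, with medians of 0.09 and −0.18. In the difference, 16 were called lower in seedlings and 2 higher (62.1%). IAA5 stood at −0.10, 0.36, 0.28 and 0.55 in inflorescences, where replicate 1 was below 0, and at −0.98, −1.09, −0.75 and −0.81 in seedlings. It was one of 4 opposed members with AXR3, IAA1 and IAA19, and it left the set without inflorescence replicate 2 or 4. IAA19 left it without inflorescence replicate 2 or seedling replicate 1, 2 or 3, and all 4 left it with median centring. The 65 SAUR genes, early auxin-responsive growth genes, had 32 lower and 2 higher in inflorescences, 41 lower and 6 higher in seedlings, 23 shared and lower and 5 opposed. Of the 5 opposed SAUR genes, only AT1G16510 stayed so with median centring. Differences were called for 27 lower and 10 higher in seedlings (56.9%). Their medians were −0.21 and −0.38, and SAUR22 was at −0.29 and −1.41.

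Expansins, which loosen cell walls, had 3 members opposed in this direction, EXPA15, EXPA1 and EXPB3, the last of which left the set on the Cy5 arrays alone and without seedling replicate 3 or 4. EXPA15 stood at 0.46, 0.39, 0.50 and 0.47 in inflorescences and at −0.65, −0.92, −1.27 and −1.43 in seedlings (difference −1.52 ± 0.12, limma, adjusted p = 2.99e-05). EXPA1 stood at 0.68, 0.83, 0.92 and 0.86 and at −0.43, −0.46, −0.59 and −0.38, a difference of −1.29 ± 0.08 (limma, adjusted p = 4.77e-06). Both stayed opposed under every alternative run. The 28 expansins as a whole had 11 higher and 5 lower in inflorescences and 13 higher and 9 lower in seedlings, with a called difference for 7 higher and 11 lower (64.3%), or for 2 and 8 with median centring. EXPA20 was opposed the other way, at −0.42 and 0.31, and left that class only with median centring. Xyloglucan endotransglucosylases, which cut and rejoin wall xyloglucan, had 15 of 31 higher and 3 lower in inflorescences and 25 higher and none lower in seedlings, of which 13 were shared and higher and 1 was opposed. The difference was called for 15 higher and 1 lower (51.6%), or for 6 and 0 with median centring. In a fit of only the loci above background in both tissues, 21 of the 31 remained, with 8 called higher and 3 lower. XTH32, the opposed member, stayed so under 10 of 20 alternatives and left the class with median centring. XTH5 was at −0.01 in inflorescences and 1.53 in seedlings.

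Of 31 cysteine-rich receptor-like kinase genes, 19 rose and 5 fell in inflorescences and 11 rose and 6 fell in seedlings, with medians of 0.28 and 0.03. In the difference, 15 were called lower in seedlings and 5 higher (64.5%), and 4 members were opposed. CRK18 stood at 0.31, 0.63, 0.06 and 0.42 in inflorescences and at −0.92, −0.70, −0.80 and −0.44 in seedlings, and left the opposed set without inflorescence replicate 2. The neighbours CRK2 and CRK3 were at 0.48 and 0.21 in inflorescences and at −0.20 and −0.56 in seedlings, and CRK2 left the set without seedling replicate 2. CRK41 left it without inflorescence replicate 2, 3 or 4. With median centring CRK3 and CRK41 left it, and CRK3 also did so on the Cy5 arrays alone. Among aliphatic glucosinolate genes, IPMI2, a subunit of isopropylmalate isomerase, was opposed at 0.42 and −0.41, while 5 of the 17 were shared and lower and the median difference was 0.00. Their difference was called for 4 higher and 3 lower (41.2%), or for 1 and 2 with median centring.

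The shared loci with the largest ratios in both tissues included known pathogen-responsive genes. PCC1 (AT3G22231) stood at 5.12, 5.20, 4.20 and 3.57 in inflorescences and at 2.14, 2.72, 2.56 and 1.90 in seedlings, so it rose in both and its difference of −2.19 ± 0.25 was called (limma, adjusted p = 0.000187). PCR1 (AT1G14880), named for cadmium resistance, stood at 3.49, 4.28, 2.23 and 1.94 and at 2.35, 3.83, 3.84 and 3.65, and the arrays of the tissues overlapped. Its difference of 0.43 ± 0.48 did not pass (limma, adjusted p = 0.525). The lower end of its 95% interval was −0.64 and the upper end lay further from 0, so equal size is not shown. MEE38 (AT3G43160) was measured far more tightly, at 2.41, 2.50, 2.68 and 2.51 and at 2.23, 2.39, 3.15 and 2.68. Its difference was 0.09 ± 0.13 (limma, adjusted p = 0.628), with an interval from −0.19 to 0.37. LURP1 (AT2G14560), named for its response to the oomycete Hyaloperonospora, stood at 3.21, 3.31, 2.32 and 2.02 and at 2.01, 2.17, 2.19 and 2.68. Its 2 probes gave differences of −0.45 and 0.28, so its sign is not settled (limma, adjusted p = 0.202 for the brighter probe). AT1G19960, which has no symbol here, stood at 3.12, 3.31, 2.87 and 2.83 and at 2.14, 1.96, 1.58 and 1.92, a difference of −1.13 ± 0.09 (limma, adjusted p = 2.45e-05). The remaining named loci of this set were ANK (AT5G54610), an ankyrin repeat protein gene, CHI (AT2G43570), a chitinase gene, and AT1G13470, AT1G80130 and AT5G03350, none with a called difference.

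Among shared lower loci, genes of the chloroplast stood beside loci without a symbol. AT1G53290 was among the most even, at −1.24, −1.17, −1.38 and −1.39 in inflorescences and −1.34, −1.20, −1.38 and −1.34 in seedlings. The 95% interval of its difference ran from −0.16 to 0.12. FdC1 (AT4G14890), a chloroplast ferredoxin gene, stood at −1.08, −1.10, −1.21 and −1.15 and at −1.52, −1.34, −1.40 and −1.36, a difference of −0.27 ± 0.07 (limma, adjusted p = 0.0142). PSAG (AT1G55670), a subunit gene of photosystem I, stood at −1.04, −1.07, −1.12 and −1.27 in inflorescences and at −0.80, −0.98, −1.70 and −1.58 in seedlings. Its seedling values split by dye, lower on replicates 3 and 4. EMB3123 (AT3G27750) stood at −1.30, −1.36, −1.14 and −1.11 and at −1.38, −1.31, −0.84 and −1.30, with no called difference. AT5G57760 fell further in seedlings (−2.26) than in inflorescences (−1.23), a difference of −1.03 ± 0.11 (limma, adjusted p = 0.000141). AT3G45160, at −1.63 and −1.93, had a called difference of −0.29. AT3G18773, AT5G52780, AT1G50730 and AT5G02950 had none.

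**Figure D4:**
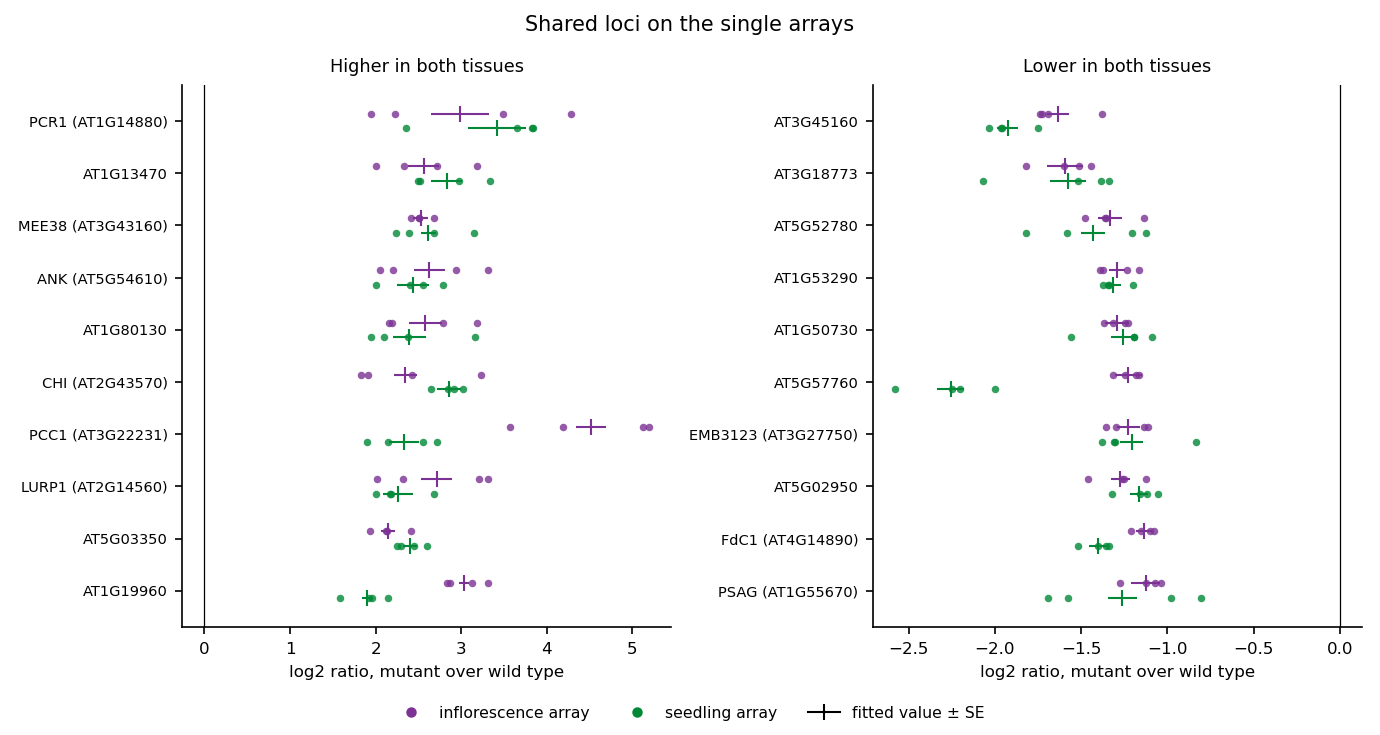
The log2 ratio of mutant over wild type on each array is shown for the 10 shared higher and the 10 shared lower loci with the largest ratios in both tissues, in the same colours as for the opposed loci. Purple and green points intermix for loci such as MEE38 and AT1G53290 and lie apart for PCC1, AT1G19960 and AT5G57760.

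Shared direction did not mean an equal size. Among the 3317 shared higher loci the difference was called for 910, with the larger ratio in seedlings for 509 and in inflorescences for 401. Among the 3705 shared lower loci it was called for 806, with the larger fall in seedlings for 489 and in inflorescences for 317. For 2732 and 3446 loci of these sets the 95% interval of the difference lay within 1.5-fold in either direction. Of the 96 shared higher loci at 2-fold or more in both tissues, 34 had such an interval, and of the 23 shared lower ones 21 did.

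The EDS1 and salicylic acid defence list, the main immune branch against biotrophic pathogens, was shared in direction and mixed in size. Of its 30 genes, 21 rose in both tissues, and none was opposed, yet the difference was called for 12 higher in seedlings and 7 lower (63.3%). Its median difference of −0.07 changed sign, to values between 0.04 and 0.26, with normexp offset 0, with the software's log ratio, in the deposited table and on the Cy3 arrays alone. AIG1 (AT1G33960), a gene induced by avirulent bacteria, stood at 1.12, 1.24, 0.74 and 0.46 in inflorescences and at 2.48, 3.72, 3.91 and 3.86 in seedlings (difference 2.60 ± 0.30, limma, adjusted p = 0.000212). WRKY70, a transcription factor gene of salicylic acid signalling, was at 1.06 and 2.47. ACD6, an ankyrin protein gene that raises salicylic acid, went the other way in size, at 2.17, 2.32, 1.60 and 2.55 in inflorescences and 0.51, 0.24, 0.60 and 0.53 in seedlings, a difference of −1.68 ± 0.18 (limma, adjusted p = 0.000124). The 63 WRKY genes had 17 shared higher and 7 shared lower members, and a called difference for 21 higher and 8 lower (46.0%), or for 6 and 6 with median centring. The 2 classed as opposed, WRKY31 and WRKY35, both left that class with median centring and without inflorescence replicate 1, 2 or 4 or seedling replicate 3. WRKY31 also left it without inflorescence replicate 3, and WRKY35 without seedling replicate 1 or 2. The 49 glutathione transferases, detoxifying enzymes, had 17 shared higher and 3 shared lower, where the shares of all loci were 15.5% and 17.3%. Their difference was called for 18 higher and 9 lower (55.1%), or for 12 and 6 with median centring. GSTF6 and GSTF7 rose by 0.71 and 0.79 in inflorescences and by 2.79 and 2.97 in seedlings.

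Nuclear photosynthesis genes fell in both tissues in 25 of 54 cases, with 4 shared and higher and 5 opposed. In all, 25 fell and 12 rose in inflorescences, 43 fell and 5 rose in seedlings, and the difference was called for 33 lower and 2 higher (64.8%). This list moved with the dye. The inflorescence arrays had list medians of −0.02, −0.01, −0.41 and −0.33 and the seedling arrays of −0.29, −0.18, −0.89 and −0.82, with replicates 3 and 4, the mutant in Cy3, lower in each tissue. Within the Cy5 arrays the median difference was −0.22 with 6 lower calls, within the Cy3 arrays it was −0.48 with 33, and with median centring 11 were called lower. RBCS2B, a small subunit gene of Rubisco, was at −0.14 in inflorescences, which did not pass, and at −1.33 in seedlings. The 5 members classed as opposed, CAB1, LHCB2.1, PETC, RBCS1A and PSAH-1, each left that class under 8 or more of 20 alternatives. CAB1 shows how, at −0.20, −0.40, 0.67 and 0.85 in inflorescences, where the sign follows the dye. Each of the 5 left the class without several single arrays. CAB1 left it without any of inflorescence replicates 1, 3 and 4 or seedling replicates 2 and 4. LHCB2.1 left it without inflorescence replicate 3 or 4 or seedling replicate 1, 3 or 4. PETC left it without seedling replicate 1, 3 or 4, RBCS1A without seedling replicate 3 or 4, and PSAH-1 without any inflorescence replicate.

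Other loci differed in one tissue and not measurably in the other. The difference was called together with a call in seedlings alone for 2500 loci, of which 478 were not above background in inflorescences, and together with a call in inflorescences alone for 1883, of which 587 were not above background in seedlings. The widest called gap among loci measured on all 8 arrays was that of BHLH100 (AT2G41240), a bHLH factor gene of the iron deficiency response. It stood at −0.15, −0.02, −0.28 and −0.19 in inflorescences, which did not pass, and at 5.20, 4.63, 4.46 and 4.59 in seedlings. The wild type was above background on 2 of 4 seedling arrays, and the difference was 4.88 ± 0.12 (limma, adjusted p = 3.34e-08). Its relatives bHLH38 and bHLH39 rose by 2.45 and 1.71 in seedlings and were not above background in inflorescences.

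Of the 16 iron deficiency genes, 4 rose and 3 fell in inflorescences and 11 rose and none fell in seedlings, with medians of −0.04 and 0.63, and the difference was called for 10 higher and 1 lower (68.8%). ZIF1, a vacuolar nicotianamine transporter gene, was opposed at −0.40, −0.52, −0.54 and −0.65 in inflorescences and at 0.86, 0.56, 0.32 and 0.30 in seedlings (difference 1.04 ± 0.09, limma, adjusted p = 3.69e-05), and so was NAS1, a nicotianamine synthase gene, at −1.18 and 0.45. NAS1 left the opposed set under 4 alternatives, among them the Cy3 arrays alone, and no single array ended its call. Root markers rose in the same seedlings, with 11 of 17 higher and 2 lower and array medians of 0.88, 0.59, 0.67 and 0.29. Their difference was called for 9 higher and 0 lower (52.9%), or for 1 with median centring. The iron list had medians of 0.94, 0.73, 0.55 and 0.26 on the seedling arrays, so replicate 1 was highest and replicate 4 lowest for both lists. The part of roots in the iron result was not tested. SHV2, a root hair gene, was the root marker that was opposed, with a difference of 1.56.

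Further genes had wide gaps between the tissues. PAD3 (AT3G26830), which makes the last step of camalexin, stood at 0.24, 0.67, 0.02 and 0.30 in inflorescences, which did not pass, and at 2.54, 3.62, 4.31 and 3.15 in seedlings (difference 3.10 ± 0.31, limma, adjusted p = 8.99e-05). TAT3 (AT2G24850), a jasmonate-induced tyrosine aminotransferase gene, stood at 0.40, 0.35, −0.40 and −0.95 and at 2.35, 2.89, 3.66 and 2.76, so its inflorescence arrays spread around 0 while its seedling arrays were all high. In the other direction, DUR3 (AT5G45380), the urea transporter gene, stood at 2.65, 2.62, 2.52 and 2.92 in inflorescences and at 0.19, 0.23, 0.20 and 0.13 in seedlings, shared in sign with a difference of −2.49 ± 0.09 (limma, adjusted p = 2.66e-07). RALFL11 (AT2G19030), a RALF-like signalling peptide gene, rose in inflorescences at 2.42, 2.52, 2.41 and 1.96 and was not above background in seedlings. JAL23 (AT2G39330), a jacalin lectin gene, fell there at −2.87, −3.56, −2.91 and −3.26 and was likewise not above background in seedlings. NATA1 (AT2G39030), an acetyltransferase gene, stood at 2.94, 4.38, 4.79 and 4.13 in seedlings and was not above background in inflorescences.

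Of the polymerase genes, PAPS1 (AT1G17980) stood at 0.04, 0.06, 0.10 and 0.20 in inflorescences and at 0.08, 0.05, −0.02 and −0.11 in seedlings. The arrays overlapped, and the difference of −0.10 ± 0.07 (limma, adjusted p = 0.319) had a 95% interval from −0.25 to 0.06. The differences of PAPS2 and of PAPS4, listed as nPAP, were 0.01 and 0.02 and did not pass. PAPS3 was not above background in seedlings. Of 22 genes for 3′ end processing and poly(A) tail factors, the difference was called for 3 higher and 2 lower (22.7%), below the share of all loci, and with median centring for none.

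The histone, cyclin and cold lists had called differences at shares below the 32.2% of all loci. Histone genes had one for 2 higher and 3 lower of 21 (23.8%), cyclins for 1 and 7 of 39 (20.5%), and cold and dehydration genes for 1 and 1 of 14 (14.3%). Heat shock genes rose in both tissues, 6 of 10 in inflorescences and 9 of 10 in seedlings, with 6 shared and higher and 1 shared and lower. A difference was called for 5 of the 10, all higher in seedlings, or for 1 with median centring. In a fit of only the loci above background in both tissues, 6 of the 10 heat shock genes remained, with 1 called higher and 0 lower. The median difference of these 6 was 0.09, as against 0.28 for all 10, so most of the calls rest on the full list. Of 33 aquaporin genes, 15 were shared and higher and 3 opposed, and the difference was called for 5 higher and 11 lower (48.5%). The 3 opposed aquaporins, NIP3;1, PIP2E and PIP1B, all left that class with median centring. NIP3;1 stayed in it under 10 of 18 alternatives, and PIP2E left it without seedling replicate 3. Of the 15 clock genes, 9 rose and 2 fell in inflorescences against 4 and 3 in seedlings, and the difference was called for 1 higher and 5 lower (40.0%). The mature pollen list had 4 higher and 5 lower of 13 in inflorescences with array medians from −0.26 to 0.16, and no call in seedlings. The difference was called for 4 higher and 3 lower (53.8%), but only 2 of the 13 were above background in both tissues, with no call among them, and in seedlings the other members had neither genotype above it on all 4 arrays.

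**Figure D5:**
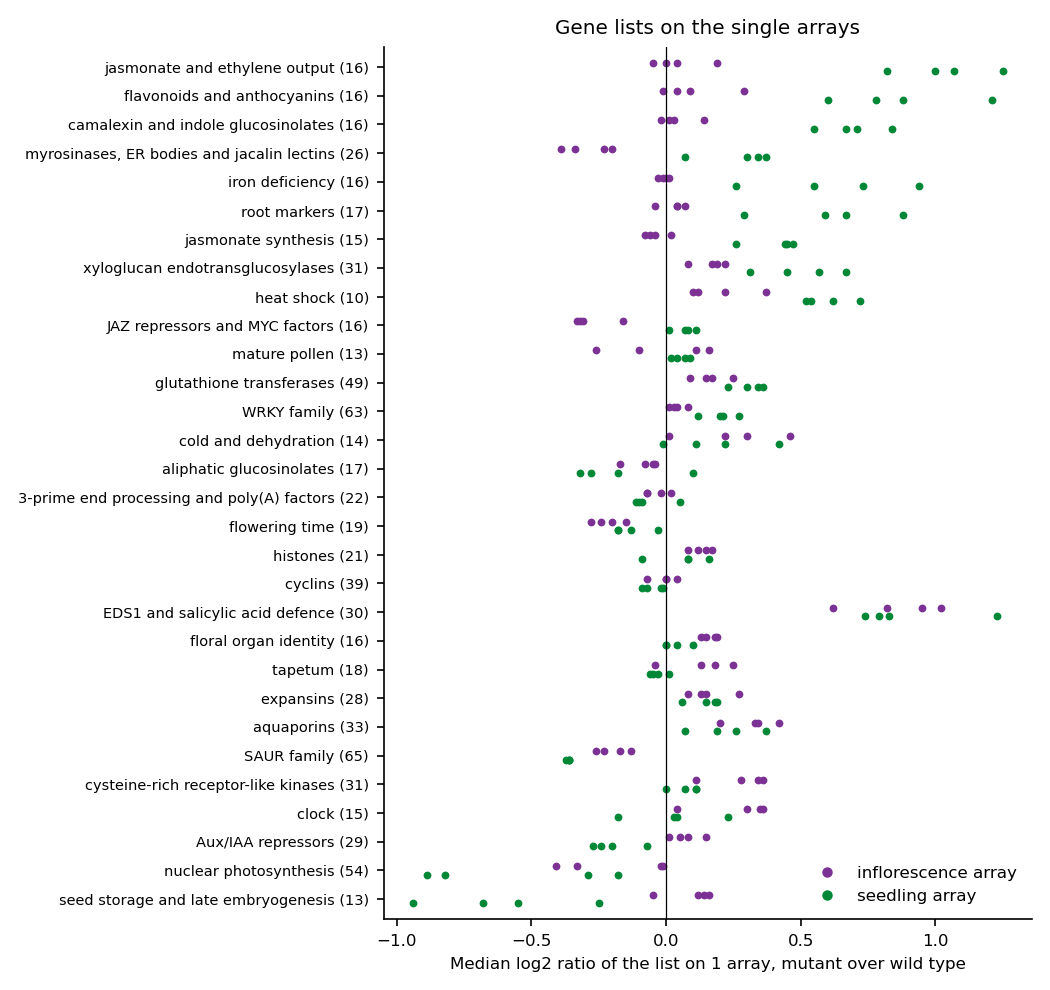
Each row is a gene list with its number of tested members, and each point is the list's median log2 ratio of mutant over wild type on 1 array, purple for inflorescences and green for seedlings. Jasmonate and ethylene output, flavonoid and camalexin lists lie at the top with green points to the right, the seed list lies at the bottom, and the spread of the photosynthesis points within a tissue goes with the dye.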

How the data were processed

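The members of the compared sets and the gene lists were chosen with earlier results of these data known. Per the file headers, the deposited scanner files come from Feature Extraction 10.7.3.1 and give, for either dye, unnormalized median intensities of spots and of the background around them, beside a log10 ratio of processed red over green signals. The deposited value table holds log2 ratios, which correlated with red over green of the scanner signals at 0.802 to 0.906 with the mutant in Cy5 and at −0.908 to −0.889 with the mutant in Cy3, so the authors had turned them to mutant over wild type. The medians of its arrays lay between −0.020 and 0.018. Per the submitters' processing notes limma was used; its settings are not given.

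From the median intensities, normexp (offset 50) and loess within arrays were run in R 4.3.3 (packages limma 3.58.1 and data.table, version 1.17.8). Loess sets the typical ratio of each array to 0. Of 39102 spots, 1417 were controls, and flagged spots were left out. A probe was kept if well above background on all 4 arrays of a genotype in a tissue and measured on at least 6 arrays, with the brightest of the kept probes taken for each locus. A locus counted as above background in a tissue if a genotype was so on all 4 arrays there. The fit had a coefficient per tissue and a dye term, with 5 residual and 4.86 prior degrees of freedom, and was tested on simulated data. Wild-type levels were compared between tissues after quantile scaling of mean log intensities, across slides. Named genes were, among loci measured on all 8 arrays, the 12 opposed loci of each direction and the 10 shared loci of each direction with the same sign on all arrays of a tissue and the largest smaller-of-both ratio, the 10 largest and 10 smallest called differences without overlap (described in part), up to 4 members of each list with the largest called differences, opposed list members, and PAPS1 to PAPS4. Symbols come from RefSeq, which held 25449 of the loci on the array. With 4 arrays a tissue, precision is limited by their number. No sequences were used.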

Additional observations from a re-analysis of the deposited data

Results flagged for a closer look

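Single arrays stood apart from the other 3 of their tissue for 26 named genes, by a gap above Dixon's 95% critical value for 4 samples. Chance sets apart about 1 in 20 groups. In inflorescences, replicate 1 was apart for AT4G33720 (−0.36, others 0.01 to 0.08), IMS2 (0.11, others 0.03 to 0.04), HSP17.4 (0.12, others −0.03 to −0.01) and EXPA7 (−0.37, others 0.01 to 0.07). Replicate 2 was apart for HIS1-3 (2.57, others 1.06 to 1.21) and RAT5 (0.39, others 0.57 to 0.59), and replicate 3 for AT3G45160 (−1.38, others −1.74 to −1.69) and PSAH2 (−0.30, others −0.03 to 0.02). bHLH39 was apart in both tissues, on inflorescence replicate 4 (−0.11, others −0.01 to 0.00) and seedling replicate 1 (2.28, others 1.44 to 1.57).

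In seedlings, replicate 1 was also apart for AT5G02540 (−1.20, others −0.75 to −0.66), PCR1 (2.35, others 3.65 to 3.84), AIG1 (2.48, others 3.72 to 3.91), XTH5 (1.30, others 1.60 to 1.62) and TIP2;2 (−0.03, others 0.33 to 0.40). Replicate 2 was apart for WRKY58 (−0.01, others 0.17 to 0.20), AT5G10350 (−0.84, others −0.64 to −0.62) and PABN1 (−0.55, others −0.29 to −0.25). Replicate 3 was apart for EMB3123 (−0.84, others −1.38 to −1.30), AT1G49700 (0.95, others −0.98 to −0.79), XTH12 (1.08, others 0.87 to 0.89), TDF1 (−0.56, others 0.01 to 0.06) and OLEO2 (−1.30, others −2.36 to −2.19). Replicate 4 was apart for AT2G36630 (−0.02, others −0.83 to −0.81), JAZ8 (−0.03, others 0.22 to 0.23), WRKY35 (−0.05, others 0.21 to 0.25) and AT3G12830 (0.06, others 0.22 to 0.23).

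The genotype effect differed between the tissues, by the test of the difference in limma, for 6905 loci. Among loci named as opposed or shared, the difference on the log2 scale was 3.44 for BGLU18, 3.08 for LOX2, 3.03 for AT1G73325, 2.87 for VSP1, 2.39 for AT2G34810, 2.23 for AT1G52000, 2.22 for TSA1, 2.13 for AT5G05600, 1.77 for PAP1 (AT1G56650), 1.71 for AT2G41800, 1.47 for MGDC and 1.43 for CYP79B3. In the other direction it was −2.42 for HVA22B, −2.20 for AT1G77530, −1.66 for AT2G36630, −1.65 for UGT75B1, −1.64 for AT1G72100, −1.50 for HFR1, −1.46 for AT5G02540, −1.45 for DCF, −1.30 for PME61, −1.25 for AT4G29905, −1.22 for ECP63 and −1.10 for AT1G78460. Of shared loci it was −2.19 for PCC1, −1.13 for AT1G19960, −1.03 for AT5G57760, −0.29 for AT3G45160 and −0.27 for FdC1. The loci just listed are left out of both lists that follow. The widest called differences otherwise were 4.88 for BHLH100, 4.08 for NATA1, 3.76 for AT4G12490, 3.15 for MBP1, 3.14 for JAL23, 3.10 for PAD3, 3.09 for BHLH101 and 3.07 for TAT3. The lowest were −3.26 for AT3G16670, −3.18 for AT4G33720, −2.96 for AT2G07719, −2.49 for DUR3, −2.38 for AT5G10120, −2.38 for RALFL11, −2.35 for PER1 and −2.20 for AT1G49700. In both lists several genes were dim in one tissue, so that their difference and rank are fitted values only. NATA1, AT4G12490, AT5G10120 and PER1 were not above background on any inflorescence array, and RALFL11 on no seedling array. AT3G16670 was above it on 1 inflorescence array in each genotype and JAL23 on 1 seedling array in each, while BHLH101 was above it on 2 inflorescence arrays in the mutant channel and none in the wild type. AT4G33720 was above it on 2 and 3 inflorescence arrays in the mutant and wild type, and BHLH100, PAD3 and TAT3 on 2 seedling arrays in the wild type. Of the 2410 kept probes that name no locus, which the comparisons did not use, 367 had a called difference in the same model (15.2%).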

How the results depend on the processing

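The difference was called for 2941 loci with median centring, 4141 with the mutant in Cy3 only and 2980 with the mutant in Cy5 only. Of these, 1072, 2065 and 1512 were higher in seedlings and 1869, 2076 and 1468 lower. In the same order the loci opposed and higher in seedlings numbered 138, 204 and 168, and those higher in inflorescences 225, 206 and 176. At an adjusted p under 0.01 the opposed sets held 168 and 158 loci, and at 1.5-fold in both tissues 17 and 6. Shared higher loci numbered 1799 with median centring, 2201 in Cy5 only and 390 at 1.5-fold, and shared lower loci 2228 in Cy5 only and 283 at 1.5-fold. Only 34.0% and 42.7% of the opposed sets remained with median centring, and the cause was not tested. With single arrays left out, the difference ranged from 4928 to 7800 loci (2531 to 3919 higher, 2397 to 3881 lower), inflorescences from 9288 to 12635, seedlings from 10331 to 12388, the opposed sets from 260 to 420 and from 243 to 412, and the shared sets from 2731 to 3530 and from 3153 to 3923. The replicate block gave 6147 loci (3135 and 3012). Same-numbered arrays, which also share the dye orientation, deviated together with r of 0.12 to 0.321. With the dye removed r was −0.406 to −0.078. Removing a dye term fitted over both tissues itself pushes r of arrays with the same dye orientation to negative values. These values therefore cannot decide whether same-numbered arrays share anything beyond the dye. Loci above background in both tissues, chosen after seeing the data, gave 5820. Of 4345 values for 222 gene results, 4121 kept direction and side of the threshold, 207 lost the call, 15 moved and 2 reversed, both with the software's log ratio, where the difference was 0.38 for WRKY54 (adjusted p = 0.291) and −0.61 for MAF5 (adjusted p = 0.176, limma); the cause was not tested. Of the 24 named opposed loci, 22 stayed opposed under all 20 alternatives. These were chosen for large ratios with the same sign on all arrays of a tissue, which favours that outcome. It does not speak for the rest of the opposed loci. Low signal over background limits the 3103 loci not above it in 1 tissue.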

Other observations

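The opposed sets differed in their wild-type levels. The median wild-type level was 0.35 lower in seedlings than in inflorescences (−0.35 on the log2 scale) for loci lower in mutant inflorescences and higher in mutant seedlings, with 35.4% of them higher in wild-type seedlings. For the loci opposed the other way the median was 0.76 with 74.9% higher, and over all loci it was −0.05 with 46.8% higher. In the mutant, whose levels are those of the wild type plus the ratios that define the sets, the medians were 0.21 and 0.14. For shared higher and shared lower loci the wild-type medians were 0.13 and −0.11. The wild-type signal is the denominator of the ratios that define the sets, so the wild-type levels are not independent of the choice of loci either. These levels come from different slides, and no test was made.

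Of the loci opposed and higher in inflorescences that could be placed, 22 of 353 (6.23%) had a neighbour of the same set, against 3.27% of all loci. Pairs of this set included CRK2 with CRK3, and SNG1, the sinapoylglucose malate sinapoyltransferase gene, with SCPL13 (differences −1.11 and −0.88). For the loci opposed and higher in seedlings the share was at the background, 12 of 358 (3.35%) against 3.3%, although BGLU18 with TSA1, VSP2 with VSP1 and the annexin genes ANNAT4 with ANNAT3 (1.55 and 0.74) are such pairs. No test was made of these shares.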
